A study of Mus musculus with 8 samples.

Results

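The genes described here are 10 components and readouts of the Hippo pathway: the coactivator genes Yap1 and Wwtr1, the DNA-binding factor genes Tead1, Tead2 and Tead4, their cofactor gene Vgll4, the kinase gene Lats2, the angiomotin gene Amotl2, the target gene Ankrd1, and Zyx, which encodes the adhesion protein zyxin. They are 10 of the 55335 genes counted, and were chosen by symbol with the normalised counts of all 4 groups in view. Their own values are therefore given as a description, without a test. RNA-seq of poly(A) RNA was carried out on E14 mouse embryonic stem cells (ESCs) grown without feeders on gelatin, in serum with LIF and the inhibitors CHIR99021 and PD0325901. The 4 groups of 2 libraries each had all received a lentiviral shRNA and puromycin selection. They were a control with a scrambled shRNA, a knockdown (KD) of Sox2, a group labelled as a KD of hnRNPK, and a KD of Cdk9. The methods describe the libraries as biological duplicates, and the labels do not say which of the shRNAs used against a target each library received. No cells were sorted, so in these bulk libraries fewer cells of one kind and less RNA per cell cannot be told apart.

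In the Hippo pathway, MST and LATS kinases phosphorylate the coactivators YAP (gene Yap1) and TAZ (gene Wwtr1), which are then held in the cytoplasm or degraded. When the kinases are inactive, YAP and TAZ enter the nucleus, bind TEAD factors and switch on genes such as Ankrd1, Ccn1, Ccn2, Amotl2 and Lats2, the last 2 of which feed back on the pathway. In the mouse blastocyst, YAP with TEAD4 directs the outer cells to trophectoderm, while Hippo signalling in the inner cells, from which ESCs are derived, keeps YAP out of the nucleus. Zyxin is a LIM-domain protein of focal adhesions and actin stress fibres that also binds LATS kinases.

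The libraries held between 16709201 and 17719366 counts, and levels are given as CPM, counts relative to the size of the library after scaling by the trimmed mean of M-values (TMM). A fold change is a log2FC with its standard error (SE) from 1 edgeR fit over all 8 libraries. A gene outside the 10 was called where its adjusted p was under 0.05 and its log2FC was over 0.6 in size. The targeted genes gave a check of the labels. Sox2 was at 412 and 530 CPM in control and at 320 and 284 CPM in Sox2-KD. Cdk9 was at 109 and 129 CPM in control and at 73.1 and 53.2 CPM in Cdk9-KD. Hnrnpk was at 1090 and 1130 CPM in control but at 697 and 1140 CPM in replicates 1 and 2 labelled hnRNPK-KD. Replicate 2 thus went against its label, and this group is named by its label throughout.

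The upstream sequences of the genes on which the description turns are shown first. RefSeq start sites on GRCm38.p6 were listed for 8 of the 10 genes, in 10 windows. Each line gives the 250 bases before a start, 5′ to 3′ in the direction of the gene. Capitals mark a match to the TEAD core motif CATTCC, read as GGAATG on the other strand. Zyx, Vgll4 and Lats2 are shown because they were highest in Sox2-KD, Ankrd1 and Amotl2 as TEAD target genes, and Yap1 because its level was nearly the same in every group.
Zyx, chr6:42349578-42349827, plus strand: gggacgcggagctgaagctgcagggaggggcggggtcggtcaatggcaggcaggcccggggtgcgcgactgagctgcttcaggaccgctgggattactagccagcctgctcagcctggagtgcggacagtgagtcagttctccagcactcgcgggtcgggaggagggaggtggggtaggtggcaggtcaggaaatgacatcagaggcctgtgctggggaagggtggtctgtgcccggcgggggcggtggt
Vgll4, chr6:114969204-114969453, minus strand: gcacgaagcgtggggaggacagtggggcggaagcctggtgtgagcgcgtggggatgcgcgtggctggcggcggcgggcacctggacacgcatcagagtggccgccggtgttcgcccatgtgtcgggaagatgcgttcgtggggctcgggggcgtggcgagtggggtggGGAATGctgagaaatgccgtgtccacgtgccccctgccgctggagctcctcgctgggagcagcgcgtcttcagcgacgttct
Lats2, chr14:57746124-57746373, minus strand: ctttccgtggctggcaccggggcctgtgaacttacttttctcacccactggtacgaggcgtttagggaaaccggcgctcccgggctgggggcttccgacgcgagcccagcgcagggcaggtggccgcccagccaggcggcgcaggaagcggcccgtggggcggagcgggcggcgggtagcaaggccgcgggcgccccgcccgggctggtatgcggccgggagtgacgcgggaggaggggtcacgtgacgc
Ankrd1, chr19:36119845-36120094, minus strand: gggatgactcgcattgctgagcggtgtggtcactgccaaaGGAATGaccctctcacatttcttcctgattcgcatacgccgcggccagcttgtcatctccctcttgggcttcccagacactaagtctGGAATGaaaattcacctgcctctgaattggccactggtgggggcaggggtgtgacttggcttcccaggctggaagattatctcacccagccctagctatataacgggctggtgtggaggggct
Amotl2, chr9:102717554-102717803, plus strand: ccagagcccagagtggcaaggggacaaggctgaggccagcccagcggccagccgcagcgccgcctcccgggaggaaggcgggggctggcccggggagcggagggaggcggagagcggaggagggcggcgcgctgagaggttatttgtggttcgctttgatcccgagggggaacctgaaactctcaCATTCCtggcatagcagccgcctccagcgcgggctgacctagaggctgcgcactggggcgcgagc
Yap1, chr9:8004597-8004846, minus strand: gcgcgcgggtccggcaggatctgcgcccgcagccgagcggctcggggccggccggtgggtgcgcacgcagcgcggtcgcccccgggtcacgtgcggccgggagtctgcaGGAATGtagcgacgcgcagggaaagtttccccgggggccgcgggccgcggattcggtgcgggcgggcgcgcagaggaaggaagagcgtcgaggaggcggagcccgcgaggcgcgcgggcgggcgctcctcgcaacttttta

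The TEAD core was searched for on both strands over 300 bases, from 250 before to 50 after each start. It was present in 7 of the 10 windows and in 6 of the 8 genes, which were Lats2, Amotl2, Yap1, Wwtr1, Vgll4 and Ankrd1. The 2 Wwtr1 windows overlap and hold the same match. Over all 32851 RefSeq windows it was present in 14.7%, and over the 27025 genes in 16.6%. Known TEAD targets are among the 10 genes, and no test against these shares was made. Ankrd1 had 2 matches, which began 210 and 123 bases before its start. The single matches of Vgll4, Amotl2 and Yap1 began 82, 65 and 141 bases before theirs. That of Lats2 began at base 5 counted from the start shown, beyond the printed stretch. Zyx and Tead2 had no match. The core motif bound by SOX factors, ACAAT or ATTGT on the other strand, was present in 1 window, against 31.0% of all windows. This was the window of the Lats2 start shown. Lats2 had another window, with its upstream bases at chr14:57734419-57734668, that held neither motif. The 2 motifs share no full match, since neither contains the other. The Zyx window had a GC content of 68.3% and the Ankrd1 window 54.7%, against a median of 52.7% over all windows. A match is a description of the letters in the window and does not show that a factor was bound.

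Level per exon length was compared in the control libraries as TPM, a share of the library's transcripts for which counts are first divided by exon length (GENCODE vM21). Tead1 stood highest at 83.7 ± 1.66 TPM (SD, n = 2). Yap1 (65.5 ± 13.2 TPM), Amotl2 (64.3 ± 9.87 TPM) and Wwtr1 (59.8 ± 7.42 TPM) followed and overlapped each other. Tead4 (47.8 ± 4.6 TPM) and Tead2 (43.2 ± 6.68 TPM) also overlapped. Vgll4 (10.7 ± 3.18 TPM), Zyx (4.81 ± 0.0383 TPM) and Lats2 (1.12 ± 0.0946 TPM) were lower and did not overlap each other. Ankrd1 had no count in either control library. The TEAD factors and both coactivators thus had TPM values several times those of Vgll4, Zyx and Lats2. TPM here rests on the union of all annotated exons, 13570 bases for Tead1 against 3598 bases for Tead4, so genes with many isoforms have their level understated.

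**Figure D1:**
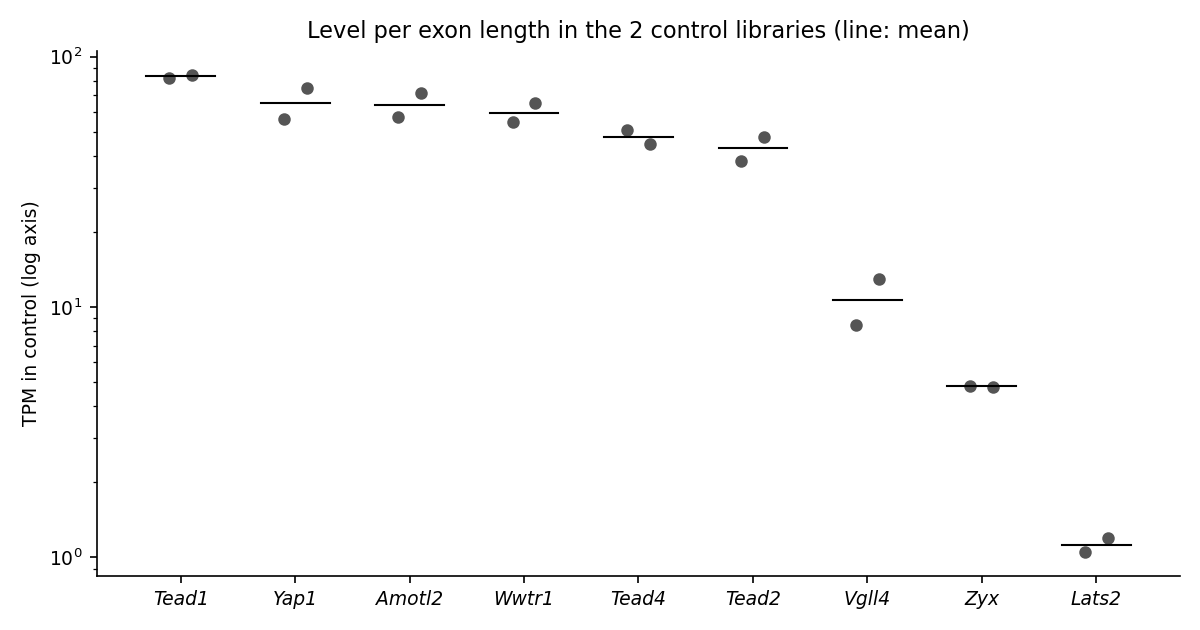
Level in the 2 control libraries in TPM on a log axis, 1 point per library, with a line at the mean, for the 9 genes with counts there. Tead1 stands highest at 83.7 TPM and Lats2 lowest at 1.12 TPM, and Ankrd1, at 0, is not drawn.

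The coactivator genes were nearly level across the groups. Yap1 (chr9:7931999-8004596, minus strand, GRCm38) encodes the coactivator YAP. It was at 152 and 206 CPM in control, 183 and 190 CPM in Sox2-KD, 171 and 195 CPM under the hnRNPK-KD label, and 163 and 205 CPM in Cdk9-KD. All 3 KD groups lay within the control range, with a log2FC of 0.06 ± 0.18 (SE) in Sox2-KD, 0.03 ± 0.18 under the hnRNPK-KD label and 0.04 ± 0.18 in Cdk9-KD. Wwtr1 (chr3:57455649-57575910, minus strand) encodes TAZ, the paralogue of YAP. It was at 76.1 and 92.7 CPM in control, 66.7 and 88.1 CPM in Sox2-KD, and 65.1 and 88.6 CPM in Cdk9-KD. These groups overlapped, with a log2FC of -0.13 ± 0.19 in Sox2-KD and -0.14 ± 0.19 in Cdk9-KD. Both libraries labelled hnRNPK-KD, at 71.4 and 70.7 CPM, lay below the controls by a log2FC of -0.25 ± 0.20.

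The TEAD genes, which encode the DNA-binding partners of YAP and TAZ, differed little from control, and not all in one direction. Tead1 (chr7:112679318-112906807, plus strand) was at 327 and 343 CPM in control, 290 and 339 CPM in Sox2-KD, 373 and 432 CPM under the hnRNPK-KD label, and 328 and 438 CPM in Cdk9-KD. Only under the hnRNPK-KD label did both of its libraries lie above the controls (log2FC 0.27 ± 0.17), and its log2FC was -0.09 ± 0.17 in Sox2-KD and 0.19 ± 0.17 in Cdk9-KD. Tead2 (chr7:45215753-45233644, plus strand) was at 53.7 and 68.3 CPM in control, 42.7 and 56.7 CPM in Sox2-KD, 42.9 and 47.3 CPM under the hnRNPK-KD label, and 52.7 and 55.1 CPM in Cdk9-KD. Its groups overlapped control except under the hnRNPK-KD label, where both libraries were lower by a log2FC of -0.44 ± 0.18. Tead4 (chr6:128224288-128300823, minus strand), the family member required for trophectoderm, was at 53.6 and 47.8 CPM in control, 53.1 and 52.8 CPM in Sox2-KD, 49.7 and 42.4 CPM under the hnRNPK-KD label, and 59.1 and 62.8 CPM in Cdk9-KD. Both Cdk9-KD libraries lay above the controls, by a log2FC of 0.27 ± 0.15, while Sox2-KD overlapped them at 0.06 ± 0.15. Across these 3 TEAD genes the log2FC against control ran from -0.44 to 0.27.

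**Figure D2:**
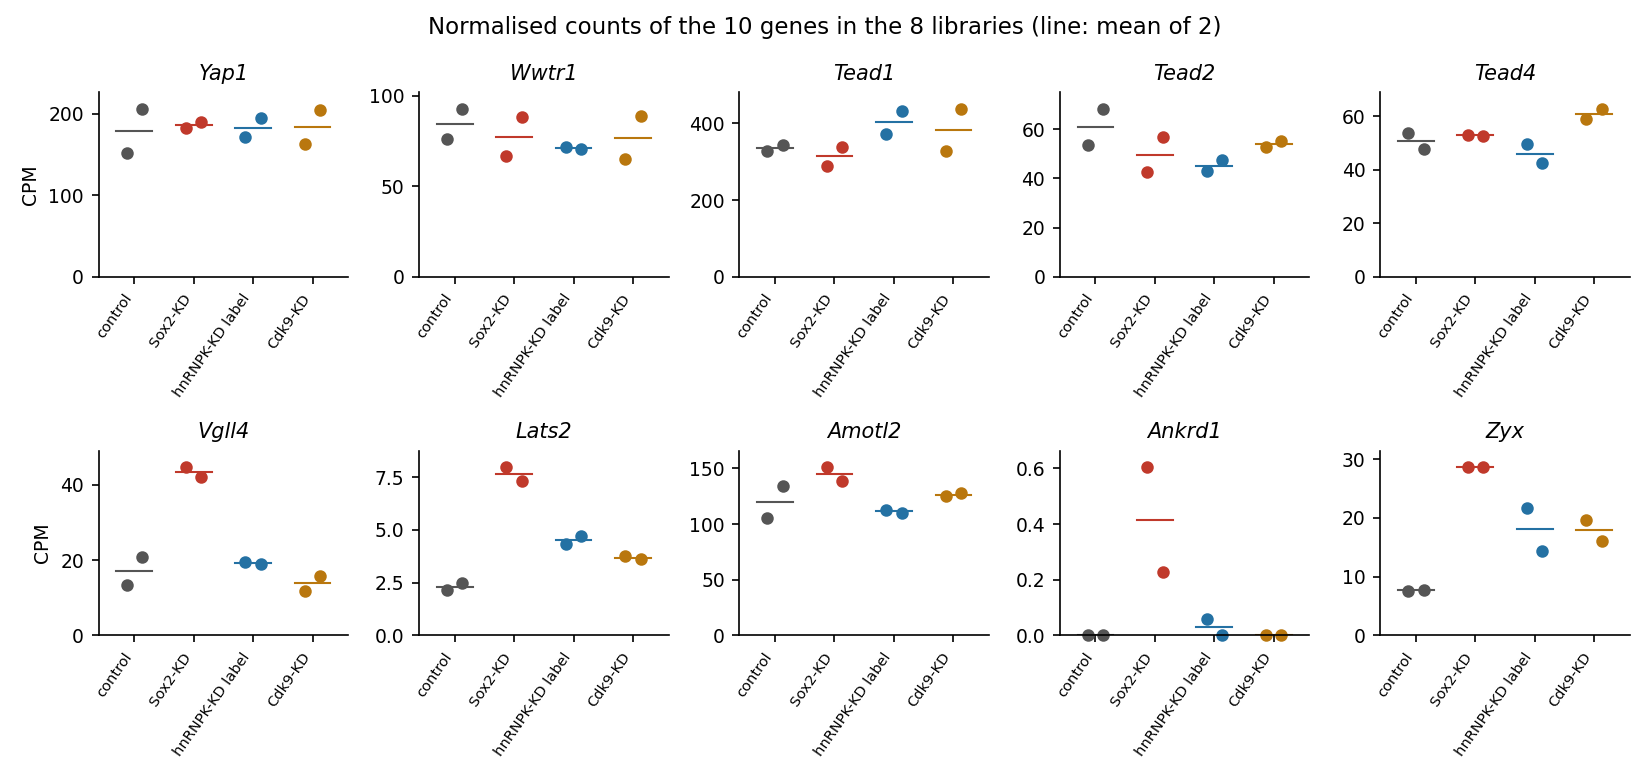
Normalised counts in CPM (linear axes from 0, a separate scale for each gene) of the 10 genes in the 8 libraries. Each point is a library and each line a group mean; Vgll4, Lats2 and Zyx stand highest in both Sox2-KD libraries, while the Yap1 groups overlap.

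Vgll4 (chr6:114860628-114969994, minus strand) encodes a cofactor that competes with YAP for TEAD factors and is known as a brake on YAP-driven transcription. Its counts were 236 and 363 in control and 813 and 738 in Sox2-KD, or 13.3 and 20.8 CPM against 44.7 and 42.1 CPM. Both Sox2-KD libraries lay above every other library, with a log2FC of 1.35 ± 0.24, a 2.55-fold higher level than in control. The libraries labelled hnRNPK-KD were at 19.6 and 19.1 CPM and the Cdk9-KD libraries at 11.9 and 15.8 CPM. Both of these groups overlapped control, with a log2FC of 0.18 ± 0.24 and -0.30 ± 0.24. Compared directly, Sox2-KD lay above the libraries labelled hnRNPK-KD by a log2FC of 1.17 ± 0.23 and above Cdk9-KD by 1.65 ± 0.24.

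Lats2 (chr14:57689662-57758388, minus strand) encodes one of the kinases that phosphorylate YAP and TAZ, and is itself a TEAD target. It was counted 38 and 43 times in control, 145 and 128 times in Sox2-KD, 74 and 81 times under the hnRNPK-KD label, and 64 and 61 times in Cdk9-KD. These counts correspond to 2.14 and 2.46 CPM, 7.97 and 7.3 CPM, 4.34 and 4.71 CPM, and 3.74 and 3.61 CPM, in the same order. All 6 KD libraries lay above both controls, and the 4 groups did not overlap each other. The log2FC against control was 1.73 ± 0.29 in Sox2-KD, 0.97 ± 0.29 under the hnRNPK-KD label and 0.67 ± 0.30 in Cdk9-KD. Sox2-KD was above Cdk9-KD by a log2FC of 1.05 ± 0.28 and above the libraries labelled hnRNPK-KD by 0.75 ± 0.28. Of the annotated Lats2 exon bases, 42.4% are shared with Gm49361 on the same strand, which had at most 1 count in a library. How reads over shared exons were assigned is not stated, so the level of Lats2 is uncertain.

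Amotl2 (chr9:102716672-102733418, plus strand) encodes an angiomotin-family protein that binds YAP at cell junctions and in the cytoplasm, and is a TEAD target. It was at 105 and 134 CPM in control, 151 and 139 CPM in Sox2-KD, 113 and 110 CPM under the hnRNPK-KD label, and 125 and 128 CPM in Cdk9-KD. The Sox2-KD libraries lay above the controls by a log2FC of 0.28 ± 0.15 with the nearer control, at 134 CPM, close beneath them. The other KD groups overlapped control, with a log2FC of -0.09 ± 0.15 and 0.08 ± 0.15.

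Ankrd1 (chr19:36111961-36120099, minus strand) encodes a muscle ankyrin-repeat protein and is widely used as a readout of YAP and TAZ. It had 11 and 4 counts in Sox2-KD, 1 and 0 under the hnRNPK-KD label, and none in the control and Cdk9-KD libraries. It did not pass the filter on low counts and was not fitted. With 3 counts in each control library taken as the most that a count of 0 allows, its mean of 0.416 CPM in Sox2-KD was 2.44-fold that level. This bound covers the counting error of the control zeros only, and not that of the 11 and 4 counts in Sox2-KD. The bound rests on few counts, and was 1.34-fold without Sox2-KD replicate 1 and 3.55-fold without replicate 2. A count of 0 in control allows a level of up to 0.17 CPM.

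Zyx (chr6:42349630-42360213, plus strand) had the largest log2FC of the 9 fitted genes in each of the 3 comparisons with control. Its counts were 135 and 134 in control, 520 and 502 in Sox2-KD, 370 and 248 under the hnRNPK-KD label, and 336 and 272 in Cdk9-KD. In CPM these were 7.6 and 7.68, then 28.6 and 28.6, then 21.7 and 14.4, then 19.6 and 16.1. The controls were nearly identical, every KD library lay above them, and both Sox2-KD libraries lay above all others. The log2FC against control was 1.90 ± 0.24 in Sox2-KD, 1.24 ± 0.24 under the hnRNPK-KD label and 1.22 ± 0.24 in Cdk9-KD, or 3.74-, 2.36- and 2.34-fold. The 3 comparisons use the same 2 control libraries. Between the KD groups, Sox2-KD exceeded the libraries labelled hnRNPK-KD by a log2FC of 0.66 ± 0.23 and Cdk9-KD by 0.68 ± 0.23. Replicate 2 under the hnRNPK-KD label, in which Hnrnpk itself was not lower, had 14.4 CPM, and replicate 1 had 21.7 CPM. With replicate 2 left out the log2FC under this label was 1.48 ± 0.24, and with replicate 1 left out it was 0.90 ± 0.25.

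Zyx overlaps the gene of the receptor tyrosine kinase Epha1 on the opposite strand, with 236 exon bases in common, or 4.38% of the exon length of Zyx. Without a stated strand setting, reads over those bases cannot be assigned with certainty. Epha1 had 51 and 28 counts in control, 150 and 175 in Sox2-KD, 172 and 146 under the hnRNPK-KD label, and 105 and 98 in Cdk9-KD. Epha1 was thus also above control in every KD library, and in Sox2-KD it rose by a log2FC of 2.02 ± 0.32 (edgeR quasi-likelihood test, adjusted p = 0.00929). In each library its count was below that of Zyx. The remaining overlaps were smaller: Tead2 shares 13 exon bases with Cd37 and Yap1 shares 116 with Gm20416, which had at most 2 counts in a library.

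**Figure D3:**
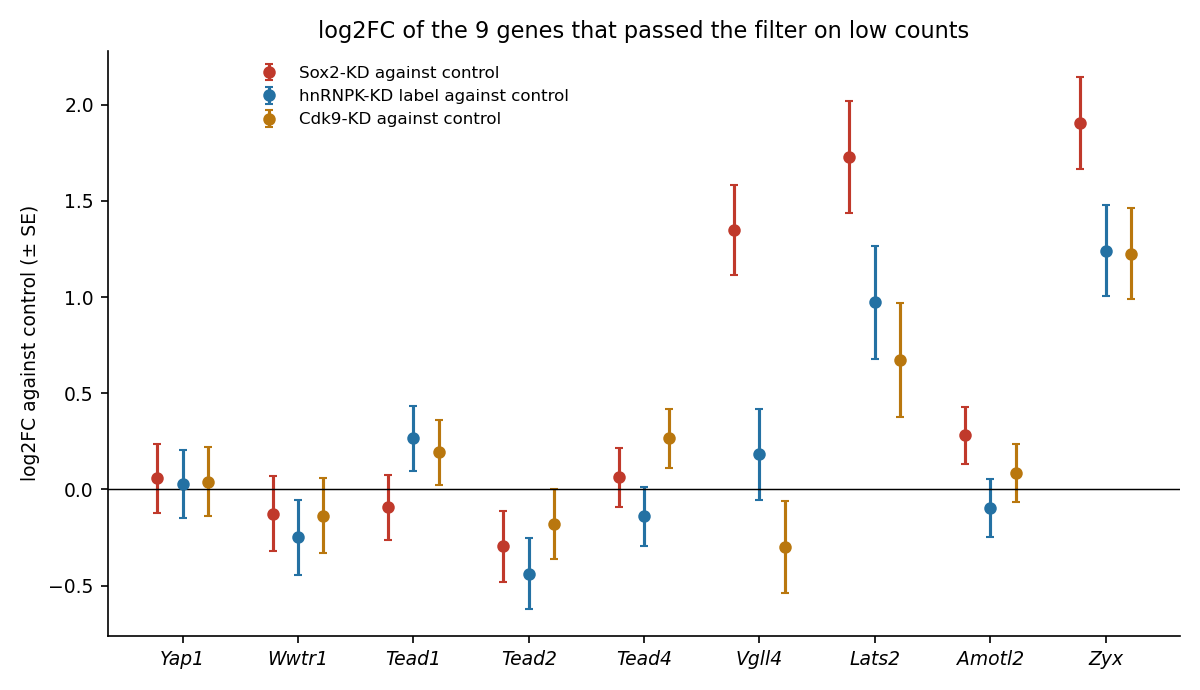
The log2FC against control (± SE) of the 9 genes that passed the filter on low counts, in Sox2-KD (red), under the hnRNPK-KD label (blue) and in Cdk9-KD (ochre), 2 libraries per group. Zyx and Lats2 lie above 0 in all 3 comparisons, Vgll4 in Sox2-KD at 1.35, and Yap1 stays between 0.03 and 0.06; the 3 comparisons share their controls.

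For the 9 genes that passed the filter, groups that did not overlap were counted, without a test. In Sox2-KD, 4 of the 9 genes lay wholly above control, against 53.3% of all genes that lay wholly above or below. Under the hnRNPK-KD label 3 genes lay above and 2 below, against 39.1% of all genes, and in Cdk9-KD 3 lay above, against 39.2%. The median log2FC of the 9 genes was 0.06, 0.03 and 0.08 in the same order, and that of all genes tested was 0.02 in each comparison. Because the genes were selected on the same counts, nothing is read from these numbers.

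The wider pathway was described from 6 lists of regulators, cofactors, targets and zyxin-related genes, which hold 58 genes beside the 10. Of these, Rbms3 and Pxn are not analysed here, and 51 of the other 56 passed the filter. In Sox2-KD, 4 of the 51 genes rose and 3 fell (edgeR quasi-likelihood test, adjusted p under 0.05), where 4.32% of all 16504 genes tested were called. Under the hnRNPK-KD label none was called by edgeR, as of all genes (0%). There, 8 of the 51 and 1325 of all genes had an unadjusted p under 0.05, and DESeq2 called 1 of the 51. In Cdk9-KD 1 of the 51 rose, where 0.139% of all genes were called. In the direct comparisons, 8 of the 51 were called between Sox2-KD and the hnRNPK-KD label, against 5.9% of all genes. Between Sox2-KD and Cdk9-KD 7 were called, against 7.33%. Each count with Sox2-KD, also that against control, includes Ccdc80. That gene passed the filter on low counts only through Sox2-KD, so its calls carry no weight here. Over the 51 genes, Ccdc80 included, the median log2FC came to 0.26 in Sox2-KD, against 0.02 over all genes. It was -0.02 under the hnRNPK-KD label and 0.03 in Cdk9-KD.

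Among the kinase cassette and its upstream regulators, none of the 14 other genes tested was called in Sox2-KD by edgeR, and their log2FC lay between -0.30 and 0.55. Lats1, the paralogue of Lats2, was at 31.8 and 35.7 CPM in control and 37.2 and 38 CPM in Sox2-KD, a log2FC of 0.15 ± 0.19 (edgeR, adjusted p = 0.71). Frmd6, a FERM-domain protein upstream of the kinases, was at 39.6 and 52 CPM in control and 61.4 and 72.9 CPM in Sox2-KD. Its difference did not pass the test against control (log2FC 0.55 ± 0.18, edgeR, adjusted p = 0.115). It did pass in the direct comparisons of Sox2-KD with the hnRNPK-KD label (1.04 ± 0.18, edgeR, adjusted p = 0.0112) and with Cdk9-KD (1.01 ± 0.18, adjusted p = 0.00889), whose libraries lay at 30.1 to 35 CPM.

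Of the YAP- and TAZ-binding proteins, the angiomotin-family gene Amotl1 fell in Sox2-KD, from 26.9 and 32.1 CPM to 10.9 and 14.5 CPM (log2FC -1.22 ± 0.21, edgeR, adjusted p = 0.0125). This was the opposite side from its relative Amotl2. Amotl1 was at 25.7 and 26.1 CPM under the hnRNPK-KD label, from which Sox2-KD also differed (-1.03 ± 0.21, edgeR, adjusted p = 0.0218). In Cdk9-KD Amotl1 was at 18.8 and 15.4 CPM, also wholly below control, but did not pass the test (-0.78 ± 0.21, edgeR, adjusted p = 0.221). Between Sox2-KD and Cdk9-KD its log2FC was -0.43 and it was not called. Ptpn14, a phosphatase that binds YAP, differed between Sox2-KD and Cdk9-KD (log2FC 1.31 ± 0.30, edgeR, adjusted p = 0.0272), where Cdk9-KD lay at 45.6 and 21.9 CPM and Sox2-KD at 76.7 and 91.1 CPM.

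Among the remaining TEAD factors and cofactors, Vgll3, a TEAD cofactor of the same family as Vgll4, rose in Sox2-KD. It had 7 and 13 counts in control and 59 and 41 in Sox2-KD, a log2FC of 2.28 ± 0.45 (edgeR, adjusted p = 0.0204). The libraries labelled hnRNPK-KD had 49 and 41 counts (log2FC 2.19 ± 0.45, adjusted p = 0.297) and the Cdk9-KD libraries 21 and 18. Between Sox2-KD and the hnRNPK-KD label the log2FC of Vgll3 was 0.09 ± 0.39 (edgeR, adjusted p = 0.928). Tead3, the TEAD gene outside the 10, was at 6.59 and 5.44 CPM in control and 8.96 and 10 CPM in Sox2-KD (log2FC 0.66 ± 0.33, edgeR, adjusted p = 0.312). Vgll2 had no count in any library, and Vgll1 had 8 and 4 counts in Sox2-KD, 1 under the hnRNPK-KD label and none elsewhere.

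Over all genes tested, 4.32% were called in Sox2-KD. Of the 17 other genes tested in the YAP and TAZ target signature, 2 rose there and none fell by the edgeR test. Their median log2FC was 0.48 against 0.02 over all genes. Of them, 8 genes lay wholly above control and 4 wholly below, where 53.3% of all genes lay wholly above or below. The 4 below, none called, were Axl (log2FC -1.48 ± 0.45, edgeR, adjusted p = 0.0944), Nuak2 (-1.03 ± 0.38), Gadd45a (-0.84 ± 0.39) and Myof. Nt5e, which encodes the ectonucleotidase CD73, rose from 8.9 and 4.07 CPM to 41.2 and 49.6 CPM (log2FC 2.81 ± 0.31, edgeR, adjusted p = 0.00232). It stood nearly as high under the hnRNPK-KD label, at 34.8 and 43.4 CPM (2.59 ± 0.31, adjusted p = 0.0761), and in Cdk9-KD, at 36.2 and 41.4 CPM (2.58 ± 0.31, adjusted p = 0.0191, called). The direct comparisons of Sox2-KD with these groups did not pass the test (log2FC 0.22 ± 0.28 and 0.23 ± 0.28, edgeR, adjusted p = 0.708 and 0.703). Ccdc80, an extracellular matrix protein gene, was nearly absent in control with 2 and 0 counts and had 56 and 16 counts in Sox2-KD. The ratio of its counts was 35.5, with a 95% counting interval from 9.47 to 299 (edgeR, adjusted p = 0.0251). It had 2 and 1 counts under the hnRNPK-KD label and none in Cdk9-KD. It passed the filter on low counts only through Sox2-KD, so a fitted Ccdc80 had to be higher there. Its place in the counts of genes that rose, or that lay wholly above control, carries no weight. The signature's median of 0.48 includes Ccdc80. The lower bound of Ccdc80 still lay above that median, so putting the gene at this bound could not move it.

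Ccn2 and Ccn1, which encode secreted matricellular proteins and are the most used readouts of YAP activity, did not pass the test. Ccn2 was at 6.87 and 15 CPM in control and 15.3 and 15.2 CPM in Sox2-KD (log2FC 0.48 ± 0.32, edgeR, adjusted p = 0.463). Ccn1 was at 10.5 and 18.7 CPM in control and 18 and 12.8 CPM in Sox2-KD (0.07 ± 0.32, edgeR, adjusted p = 0.928). The Ccn1 values in Sox2-KD lay within the control range, and those of Ccn2 lay next to the higher control. Myof, a membrane repair gene of the signature, was at 198 and 164 CPM in control and 128 and 138 CPM in Sox2-KD (-0.44 ± 0.16, edgeR, adjusted p = 0.149). It was called lower in Sox2-KD only against the hnRNPK-KD label (-0.63 ± 0.16, edgeR, adjusted p = 0.0415).

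**Figure D4:**
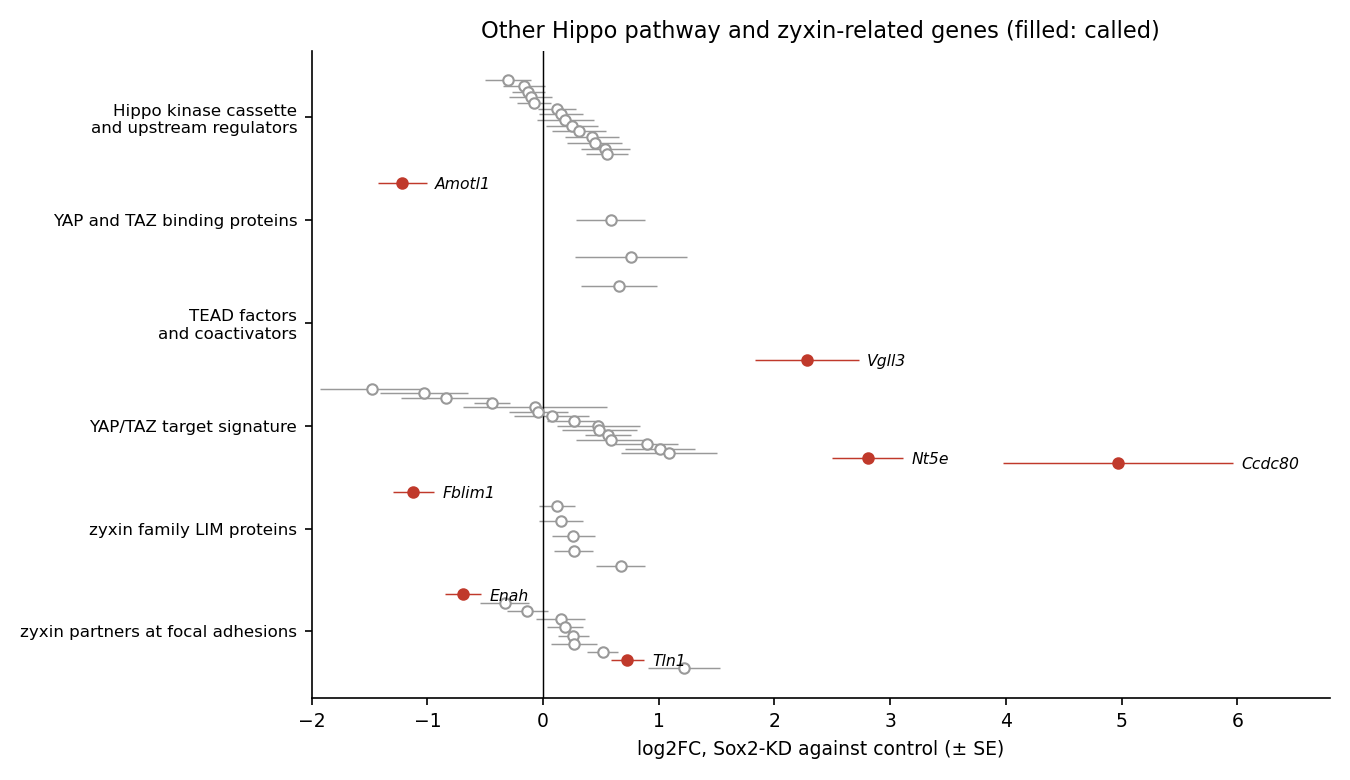
The log2FC (± SE) in Sox2-KD against control of the 51 other genes tested, by list, with called genes filled and named and the others open; Ptpn14 is drawn in both lists that hold it. The called genes lie on both sides of 0, from Amotl1 at -1.22 to Ccdc80 at 4.97, whose fitted value rests on 2 control counts.

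Of the 6 other LIM proteins of the zyxin family, Fblim1 was the one called in Sox2-KD, where 4.32% of all genes tested were called. Fblim1 encodes migfilin, which links filamin to focal adhesions. It fell from 178 and 220 CPM to 93.7 and 89.4 CPM in Sox2-KD (log2FC -1.12 ± 0.18, edgeR, adjusted p = 0.00879), in the opposite direction to Zyx, and was at 152 to 240 CPM in the other KD groups. Lpp, a close relative of zyxin, was at 56.5 and 46 CPM in control and 70 and 93.1 CPM in Sox2-KD (0.67 ± 0.21, edgeR, adjusted p = 0.104). Trip6, Ajuba, Limd1 and Wtip, which share the LIM domains of zyxin, had a log2FC between 0.12 and 0.26 in Sox2-KD and none was called.

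Zyxin acts at focal adhesions with actin regulators. Of 10 such partners tested, 1 rose and 1 fell in Sox2-KD by edgeR, where 4.32% of all genes tested were called. Enah, which encodes the actin-elongation factor Mena that zyxin recruits, fell from 284 and 322 CPM to 186 and 189 CPM (log2FC -0.69 ± 0.16, edgeR, adjusted p = 0.0349). Tln1, the gene of the integrin activator talin, rose from 216 and 196 CPM to 314 and 369 CPM (0.73 ± 0.14, edgeR, adjusted p = 0.0193). Tes, which encodes the zyxin-binding protein testin, was at 16.7 and 24.7 CPM in control and 38.8 and 57.9 CPM in Sox2-KD, just short of the threshold (1.22 ± 0.31, edgeR, adjusted p = 0.0531). It passed against the hnRNPK-KD label, at 10.4 and 10.9 CPM (2.18 ± 0.32, edgeR, adjusted p = 0.00606), and against Cdk9-KD, at 15.1 and 7.87 CPM (2.07 ± 0.32, adjusted p = 0.00452). The same 2 comparisons called Fblim1, Enah and Tln1 in the direction seen against control.

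These calls rested on few libraries. Of the 51 other genes, 3 were called in Sox2-KD without control replicate 1, 1 without control replicate 2, and 3 without either Sox2-KD library, in place of 7. Nt5e kept its call under all 16 alternatives, and each of the other 6 lost it without at least 1 of these 4 libraries. The call of Nt5e in Cdk9-KD was lost without control replicate 2 or Cdk9-KD replicate 2. Between Sox2-KD and the hnRNPK-KD label, 8 other genes were called by edgeR with all libraries and none without replicate 2 of either group. Without replicate 1 of Sox2-KD or of the hnRNPK-KD label, 4 and 3 were called. Between Sox2-KD and Cdk9-KD, 7 were called, and 3 without replicate 2 of either group.

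Markers of other cell types differed between the groups. Of 7 trophectoderm markers tested, 5 rose in Sox2-KD by edgeR (Krt8, Krt18, Krt7, Gata3 and Eomes), where 4.32% of all genes tested were called. Krt7 and Gata3 passed the filter on low counts only through Sox2-KD and so had to be higher there. In Cdk9-KD 1 rose and 1 fell, where 0.139% of all genes were called. Eomes rose from 3.83 and 2.58 CPM in control to 8.96 and 9.25 CPM in Sox2-KD, and to 19.5 and 14.3 CPM in Cdk9-KD (log2FC 2.39 ± 0.28, edgeR, adjusted p = 0.0191). The libraries labelled hnRNPK-KD also lay above both controls, at 8.09 and 7.92 CPM, but did not pass the test (1.32 ± 0.28, edgeR, adjusted p = 0.304). Tfap2c fell from 43.4 and 43 CPM to 13.1 and 7.81 CPM in Cdk9-KD (-2.04 ± 0.31, edgeR, adjusted p = 0.0416), and lay below both controls in the other KD libraries too, at 17.5 to 32.5 CPM. Cdx2, the trophectoderm gene downstream of TEAD4, was at 19.8 and 35.1 CPM in control and 6.1 and 6.22 CPM in Sox2-KD (log2FC -2.15 ± 0.54, edgeR, adjusted p = 0.0521), and Elf5 had at most 2 counts in a library. The summed level of all 9 was 89.3 and 102 CPM in control, 188 and 322 CPM in Sox2-KD, 97.6 and 130 CPM under the hnRNPK-KD label and 82.8 and 80.2 CPM in Cdk9-KD. Krt8 alone gave 97.1 and 182 CPM of the sums in Sox2-KD. Under the hnRNPK-KD label Cdx2 gave 20.3 and 85.1 CPM of the sums, the higher value in replicate 2, where Hnrnpk itself was not lower.

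Of 5 primitive endoderm markers tested, Gata6 and Dab2 rose in Sox2-KD by edgeR, where 4.32% of all genes tested were called. Gata6 passed the filter only through Sox2-KD. The sum of 7 was 3.83 and 5.10 CPM in control against 43.1 and 62.6 CPM in Sox2-KD, with 2.97 to 5.96 CPM in the other KD libraries. Dab2 alone gave 35 and 54.2 CPM of the sums in Sox2-KD, against 0.676 and 0.859 CPM in control. Gata4 was at 0.957 and 0.974 CPM in control and 1.15 and 0.457 CPM in Sox2-KD, and Sox7 was at 0 in control. The ESC markers gave 0 calls of 8 in Sox2-KD by edgeR, with 1 at an unadjusted p under 0.05. Of the 8, 7 had a negative log2FC there, with a median of -0.20 against 0.02 over all genes. Against control, 3 lay wholly below and 0 wholly above, where 53.3% of all genes lay wholly above or below. The 8 summed to 5007 and 5413 CPM in control, 4537 and 5100 CPM in Sox2-KD, and 4996 to 6134 CPM in the other KD libraries. Tfcp2l1, the marker with a positive log2FC (0.17 ± 0.15), was the largest term of the Sox2-KD sums, at 1490 and 1740 CPM. Fibroblast markers summed to 2.25 to 6.21 CPM in all libraries, with Postn, Dcn and Acta2 at 0 in control. Of 4 tested, Lum was called higher in Sox2-KD, where alone it passed the filter. The other 3 had a negative log2FC there and were not called. These were Col1a2 (-3.44 ± 0.89, edgeR, adjusted p = 0.0565), Col1a1 (-0.50 ± 0.54) and Thy1 (-0.28 ± 0.44). The part of these markers in the values of Zyx, Vgll4, Lats2 and the other genes was not tested.

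Genes with a profile like that of Zyx were sought among the 12522 other genes tested with an average log2 CPM over 1, by the root mean square difference of log2 CPM centred on its mean over the 8 libraries. The nearest was Epha7, an ephrin receptor gene, with a difference of 0.14, against a median of 0.75 over all these genes. Epha7 was at 6.25 and 6.7 CPM in control, 21 and 19.2 CPM in Sox2-KD, 14.1 and 11.1 CPM under the hnRNPK-KD label, and 15.3 and 13.5 CPM in Cdk9-KD. Next came Gm20300 and Serpinb8, each at 0.25, then Msc and Efnb2, each at 0.27. These 5 were picked for likeness on the same 8 libraries, so their shared order with Zyx follows from the choice. None of the 5 belongs to the pathway lists. The genes nearest to Yap1 were Mcu, at 0.05, and Grb2, Numb, Ywhah and Trim25, at 0.06 to 0.07, against a median of 0.27.

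**Figure D5:**
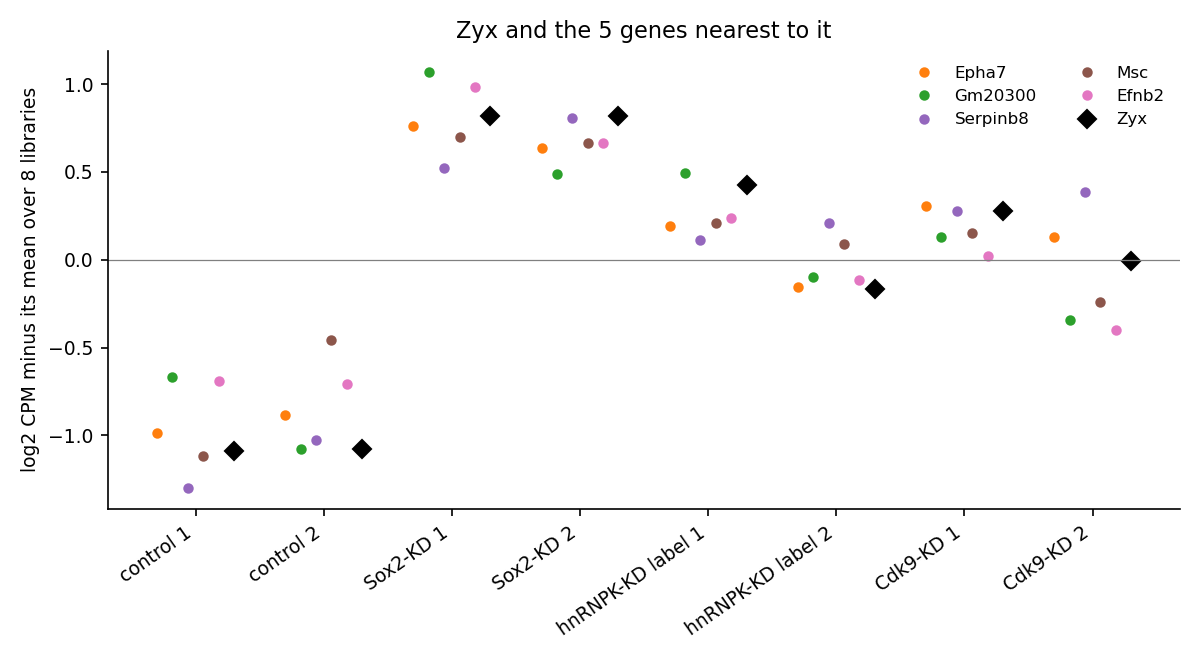
Log2 CPM minus its mean over the 8 libraries for Zyx (black diamonds) and the 5 genes nearest to it (coloured points), by library. The 5 were chosen for likeness on these libraries, so a shared order follows from the choice. All 6 genes lie lowest in the 2 control libraries, and 5 lie highest in both Sox2-KD libraries; Gm20300 in replicate 2 of Sox2-KD, at 24.8 CPM, lies next to replicate 1 labelled hnRNPK-KD, at 24.9 CPM.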

How the data were processed

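Total RNA of E14 ESCs was sequenced as paired-end poly(A) libraries, 2 per group. The authors trimmed reads with Trimmomatic, aligned them with STAR (2.7.9a in the submitters' processing notes) to mm10 and counted them per gene with featureCounts (2.0.1) on GENCODE vM23. The deposited values are raw counts per gene, neither normalised nor pooled. The strand setting and the handling of reads shared between genes are not given in the sources used here.

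All 8 columns were matched to their samples by name. The filter on low counts was filterByExpr at a count of 10 and a total of 15, and 16504 genes passed. One edgeR 4.0.16 fit (R 4.3.3, TMM, quasi-likelihood test, Benjamini-Hochberg adjustment) held all 8 libraries with a group term, so that the spread was shared over groups of 2. The thresholds of the study were used (adjusted p under 0.05, log2FC over 0.6 in size). SE is the absolute log2FC divided by the square root of F. With 2 replicates, p-values measure only the spread between these libraries. The fit was tested on simulated data.

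The 10 genes, the lists and the tests were chosen with earlier results of these data known. Of the other list genes, those called were named, up to the 12 with the largest absolute log2FC, and further ones for their role after their values were seen. Gene positions and exon lengths were taken from GENCODE vM21 (GRCm38, the same assembly as mm10), which matched 54587 genes, and upstream sequences from RefSeq (GRCm38.p6). TPM was computed over those genes. Alternatives were DESeq2 1.42.0, other normalisations and filters, only the 4 libraries compared, a replicate block, the likelihood ratio test, and each library left out.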

Additional observations from a re-analysis of the deposited data

How the results depend on the processing

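Over 16 alternatives, no called pathway gene changed direction. As a description, without a test, the log2FC in Sox2-KD lay between 1.87 and 1.97 for Zyx, 1.62 and 1.83 for Lats2, and 1.05 and 1.71 for Vgll4. The likelihood ratio test moved the count of all genes called from 713 to 1350 in Sox2-KD against control, from 0 to 87 under the hnRNPK-KD label, from 23 to 279 in Cdk9-KD, from 974 to 1690 for Sox2-KD against the hnRNPK-KD label, and from 1210 to 1869 for Sox2-KD against Cdk9-KD. It called 12 of the other pathway genes in Sox2-KD, 2 under the hnRNPK-KD label and 11 for Sox2-KD against Cdk9-KD, in place of 7, 0 and 7. DESeq2 called 69 genes and 1 other pathway gene under the hnRNPK-KD label, and 209 genes in Cdk9-KD. Without a filter on low counts 1 gene, from the other pathway genes, was called under the hnRNPK-KD label. Fitting only the 4 libraries compared gave 42 genes in Cdk9-KD. Library totals in place of TMM gave 902 higher and 250 lower genes for Sox2-KD against the hnRNPK-KD label, in place of 652 and 322.

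Leaving out 1 library at a time gave 114 to 825 genes in Sox2-KD, 0 to 1 under the hnRNPK-KD label, 0 to 25 in Cdk9-KD, 75 to 1045 for Sox2-KD against the hnRNPK-KD label and 324 to 1260 against Cdk9-KD. For the other pathway genes the ranges were 1 to 8, 0 to 1, 0 to 1, 0 to 10 and 3 to 8 in that order. Of 364 recomputed calls of single other pathway genes, 64 were lost. Where 1 library was left in a group, it was assumed to vary like the others, and the fit had fewer samples.

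Replicate numbers are shared between groups, but the correlation of replicate differences between groups ran from -0.22 to 0.20, so the numbers were not taken to pair the libraries. With a replicate block, 15 genes were called in Cdk9-KD in place of 23, and 695 in Sox2-KD in place of 713. For Sox2-KD against Cdk9-KD the correlation was negative, and a replicate block with the Cdk9-KD numbers crossed, chosen after seeing the data, called 1331 genes and 8 other pathway genes. The cause of these shifts was not tested. At this depth 1 count is worth 0.0549 to 0.0591 CPM, which limits what can be said of Ankrd1, Vgll1 and Ccdc80.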
